A study of Arabidopsis thaliana with 6 samples.

Results

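Whole 7-day-old seedlings were compared for 7 genes of jasmonate metabolism and of small antimicrobial peptides: PDF1.2, PDF1.2b and PDF1.4 of the plant defensins, THI2.1 and THI2.2 of the thionins, and JMT and JRG21, which act on jasmonic acid. The genes were chosen by name and function with their values on these arrays known, both the difference between the genotypes and the spread between arrays, so those values are given here as a description without a test. Each of the 7 was found on 1 probe set that lists no other gene, and 13356 genes of the series had such a probe set. The study held 6 Affymetrix arrays of Arabidopsis thaliana. Plants with PaWRKY1 behind the 35S promoter of cauliflower mosaic virus, which is active in most tissues, gave 3 arrays. Control plants with the empty vector pCAMBIA 1302 gave the other 3. All seedlings had 2 days of seed vernalization and 7 days of growth on full-strength MS medium, a standard plant salt medium, and RNA came from shoot and root combined. The labels give 3 biological replicates per genotype, with no accession (ecotype), no transgenic line and no statement on whether the replicates were separate lines or sowings. The spread therefore describes these samples and may be partly technical. In whole seedlings, fewer cells of a type and less RNA per cell cannot be told apart.

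Jasmonic acid is made from plastid lipids after wounding, herbivore feeding or attack by pathogens that kill their host cells. Its isoleucine conjugate binds the receptor COI1, which removes JAZ repressors from MYC transcription factors. With ethylene, it acts through ERF factors on defensin genes such as PDF1.2, a widely used marker of this branch. Other enzymes methylate, oxidise or break down the hormone. Defensins and thionins are small, cysteine-rich secreted peptides, many of which are toxic to fungi or bacteria. WRKY proteins are plant transcription factors, many with a role in defence.

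Each deposited value is a log value from which the mean of the 3 empty-vector arrays had been taken for that probe set, so a value is a difference from the control mean and not a level. The base was read as 2, the convention of the summary method RMA, and folds are given as "if log2". A higher value was taken as more transcript, also by convention. No gene's level can be set against another's on this scale. The 3 arrays per genotype limit the precision of every value.

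The arrays were not set apart by genotype alone. Along the main axis of variation (principal component 1, 41.7% of the variance), both replicate 3 arrays were highest, at 12.84 for 35S-PaWRKY1 and 40.73 for the empty vector, and the other 4 arrays lay between -22.42 and -2.734. Along principal component 2 (23.8% of the variance), the empty-vector arrays lay at 8.432 to 21.44 and the 35S-PaWRKY1 arrays at -26.31 to 1.049. Array medians differed by at most 0.0601, and the median difference between genotypes over all probe sets was -0.04.

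Of the 7 genes, 5 lay above and 2 below the empty vector on average, with a median of 0.37 log2 units. Without empty-vector replicate 3 alone, 3 lay above and 4 below, with a median of -0.04, and without both replicate 3 arrays 4 lay above and 3 below, with a median of 0.10. PDF1.4 and JRG21 were the genes that changed sides without that control array. THI2.2, with a difference of 0.73, was the gene with the genotypes apart. PDF1.2 and PDF1.2b lay above control in a near-identical pattern, and THI2.1 lay below it. PDF1.4 and JRG21 varied so widely between the control arrays that their mean differences changed sign when 1 array was left out. With limma over all probe sets, 0 of the 7 passed an adjusted p of 0.05, where 0.0308% of all probe sets did. The genotypes did not overlap for 1 of the 7, against 14.5% of all probe sets, 5.34% with 35S-PaWRKY1 higher and 9.17% with it lower. Since these values chose the genes, nothing is read from either count.

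**Figure D1:**
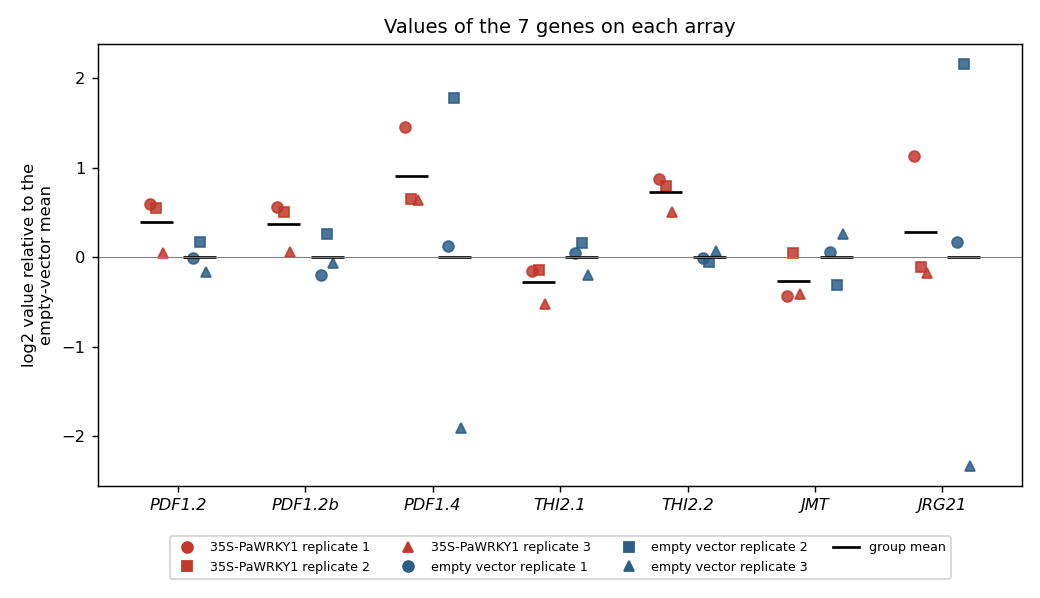
Values of the 7 genes on each array, as log2 difference from the empty-vector mean, with 35S-PaWRKY1 left of the empty vector for each gene, a marker shape per replicate number and a bar at the mean of 3 arrays. THI2.2 has its genotypes apart, while PDF1.4 and JRG21 have empty-vector arrays from about -1.90 to 1.77 and from -2.33 to 2.15.

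THI2.2 (AT5G36910, probe set 249645_at) encodes a thionin, a paralogue of THI2.1. Its values were 0.87, 0.80 and 0.51 on 35S-PaWRKY1 replicates 1, 2 and 3, against -0.01, -0.05 and 0.06 on empty-vector replicates 1, 2 and 3. All 3 35S-PaWRKY1 arrays lay above all 3 control arrays. The mean was 0.73 ± 0.193 in 35S-PaWRKY1 seedlings and 0.00 ± 0.059 in empty-vector seedlings (SD, n = 3 each), a difference of 0.73 (SE 0.116; 1.65-fold if log2). The range was 3.16 times as wide over the 35S-PaWRKY1 arrays (0.37) as over the control arrays (0.12), and 35S-PaWRKY1 replicate 3 was the lowest of its group. With single arrays left out the difference ran from 0.65 to 0.83, and it was 0.87 without both replicate 3 arrays.

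THI2.1 (AT1G72260, probe set 259802_at), a thionin gene known to be induced by methyl jasmonate, ran the other way. Its values were -0.15, -0.14 and -0.53 in 35S-PaWRKY1 seedlings, against 0.05, 0.16 and -0.20 in empty-vector seedlings, in replicate order. The genotypes overlapped, since empty-vector replicate 3 lay below 35S-PaWRKY1 replicates 1 and 2. Replicate 3 was the lowest array of both genotypes. The difference was -0.27 (SE 0.147, n = 3 per group; 0.828-fold if log2), and it was -0.15 without 35S-PaWRKY1 replicate 3 and -0.37 without empty-vector replicate 3. The 2 thionin genes thus lay on opposite sides of control on these arrays.

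PDF1.2 (AT5G44420, probe set 249052_at) is the defensin gene most used as a marker of combined jasmonate and ethylene signalling. Its values were 0.59, 0.55 and 0.05 in 35S-PaWRKY1 seedlings, against -0.01, 0.17 and -0.16 in empty-vector seedlings. On 35S-PaWRKY1 replicates 1 and 2 it lay above every control array, and on replicate 3 it lay within the control range. The mean was 0.40 ± 0.302 in 35S-PaWRKY1 and 0.00 ± 0.165 in the empty vector (SD, n = 3 each), a difference of 0.40 (SE 0.168; 1.32-fold if log2). The difference was 0.57 without 35S-PaWRKY1 replicate 3 and 0.30 without 35S-PaWRKY1 replicate 1.

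PDF1.2b (AT2G26020, probe set 257365_x_at) is a close copy of PDF1.2. Its values were 0.56, 0.51 and 0.05 in 35S-PaWRKY1 seedlings, against -0.20, 0.26 and -0.06 in empty-vector seedlings. As for PDF1.2, 35S-PaWRKY1 replicates 1 and 2 lay above every control array and replicate 3 lay among them. The difference was 0.37 (SE 0.177, n = 3 per group), with 0.27 to 0.53 when single arrays were left out. The values of the 2 genes differed by at most 0.19 on any array. Their transcripts are alike and the suffix of this probe set marks probes shared with other transcripts, so the 2 probe sets may read the same RNA and are not independent evidence. The third copy, PDF1.2c, lies next to PDF1.2 with 0 protein-coding genes between them and was not analysed here. The same holds for PDF1.3, next to PDF1.2b.

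PDF1.4 (AT1G19610, probe set 261135_at) belongs to the same subfamily of defensins by name, and behaved otherwise. Its values were 1.45, 0.65 and 0.64 in 35S-PaWRKY1 seedlings, against 0.13, 1.77 and -1.90 in empty-vector seedlings. All 3 35S-PaWRKY1 arrays lay inside the control range. The range was 0.81 over the 35S-PaWRKY1 arrays and 3.68 over the empty-vector arrays, the eighth widest control range of 22746 probe sets. The difference of 0.91 (SE 0.839, n = 3 per group; 1.88-fold if log2) rested on empty-vector replicate 3: without that array it was -0.04, and without empty-vector replicate 2 it was 1.80.

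JRG21 (AT3G55970, probe set 251770_at), annotated as jasmonate-regulated gene 21, encodes an oxygenase known to hydroxylate jasmonic acid and so to lower the active hormone. Its values were 1.13, -0.11 and -0.18 in 35S-PaWRKY1 seedlings, against 0.17, 2.15 and -2.33 in empty-vector seedlings. Over the 35S-PaWRKY1 arrays its range was 1.31 log2 units, in position 286 of 22746 probe sets, where the median range was 0.23. Over the empty-vector arrays its range was 4.48, the widest of all 22746, where the median was 0.28. The difference was 0.28 (SE 1.04, n = 3 per group; 1.21-fold if log2) over all 6 arrays. It was -0.14 without 35S-PaWRKY1 replicate 1, -0.88 without empty-vector replicate 3 and 1.36 without empty-vector replicate 2, so these arrays give no direction for JRG21.

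JMT (AT1G19640, probe set 261150_at) encodes the methyltransferase that makes volatile methyl jasmonate from jasmonic acid. Its values were -0.43, 0.05 and -0.41 in 35S-PaWRKY1 seedlings, against 0.05, -0.31 and 0.26 in empty-vector seedlings. The genotypes overlapped: 35S-PaWRKY1 replicate 2 lay above empty-vector replicate 2. The difference was -0.26 (SE 0.189, n = 3 per group; 0.832-fold if log2), with -0.42 to -0.14 when single arrays were left out and -0.06 without both replicate 3 arrays. In the RefSeq gene table, 2 protein-coding genes separate JMT from PDF1.4. Among the empty-vector arrays the 2 genes ran in opposite order, with replicate 3 highest for JMT and lowest for PDF1.4.

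**Figure D2:**
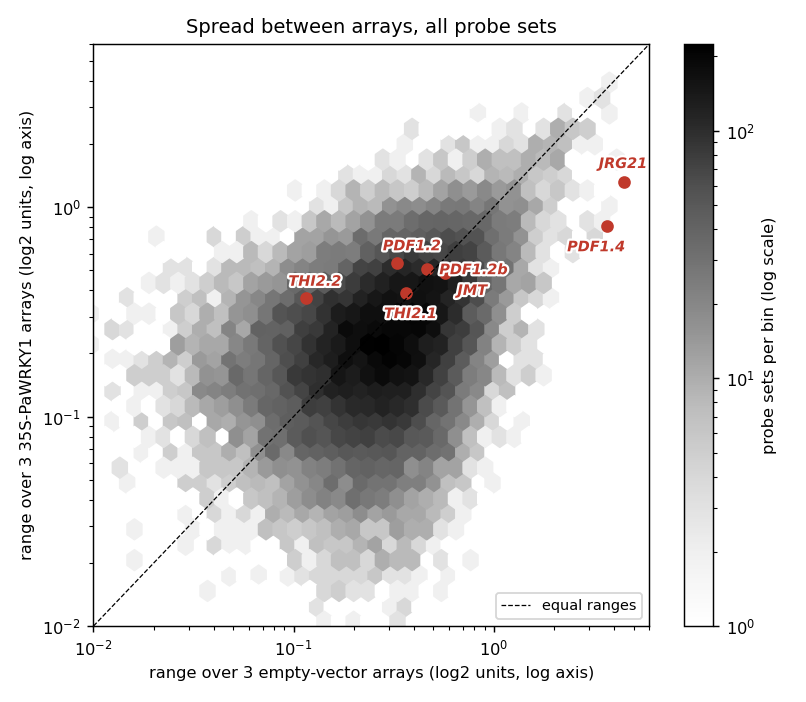
Range over the 3 35S-PaWRKY1 arrays (vertical, log axis) against range over the 3 empty-vector arrays (horizontal, log axis) for all probe sets in grey bins, in log2 units, with the 7 genes in red and ranges under 0.01 not drawn. JRG21 and PDF1.4 lie at the right edge, at 4.48 and 3.68 over the empty-vector arrays, and THI2.2 lies left of the other 6 genes, at 0.12.

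The wide control range of JRG21 and PDF1.4 had 1 shape. Both were highest on empty-vector replicate 2, near the control mean on replicate 1 and lowest on replicate 3. PDF1.2 and THI2.1 had that order too, at smaller sizes, so it held for 4 of the 7 genes, while 17.2% of all probe sets had it. The spread between arrays was known when the genes were chosen, so nothing is read from this count. A range over 3 log2 units was found for 11 probe sets over the 35S-PaWRKY1 arrays and 28 over the empty-vector arrays. Of the 28, 19 had empty-vector replicate 3 lowest, 7 had it highest, and 10 had the full order seen in JRG21. Whether growth, handling or hybridisation of these arrays differed was not tested.

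Same-numbered arrays of both genotypes deviated together over all probe sets, so the difference within each number is also given. For THI2.2 the 3 differences of 35S-PaWRKY1 minus empty vector were 0.88, 0.85 and 0.44 for replicates 1, 2 and 3. For PDF1.2 they were 0.60, 0.38 and 0.21, and for PDF1.2b 0.76, 0.24 and 0.12. All 3 differences were above 0 for these 3 of the 7 genes, against 12.3% of all probe sets. THI2.1 had -0.20, -0.30 and -0.32 and was 1 of 7 with all 3 below 0, against 21.7% of all probe sets. The genes were chosen with these differences known, and PDF1.2 and PDF1.2b may read the same RNA. Nothing is therefore read from either count. JMT had -0.49, 0.36 and -0.67. PDF1.4 had 1.32, -1.13 and 2.54 and JRG21 0.96, -2.26 and 2.14, so replicate 2 had the opposite sign to the other two in JMT, PDF1.4 and JRG21. With the replicate number as a block the SE of PDF1.2 was 0.108 (0.168 without) and that of THI2.1 0.0883 (0.147 without), while that of THI2.2 was 0.12 (0.116 without).

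**Figure D3:**
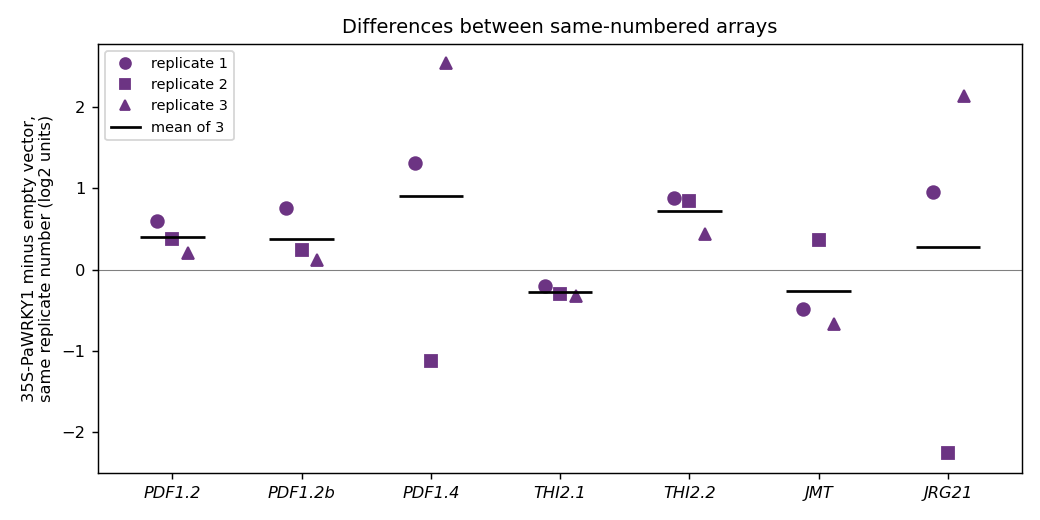
Difference of 35S-PaWRKY1 minus empty vector between arrays of the same replicate number, in log2 units, with a marker shape per number and a bar at the mean of the 3. The 3 differences are on 1 side of 0 for PDF1.2, PDF1.2b, THI2.1 and THI2.2, and on both sides for PDF1.4, JMT and JRG21.

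The other genes of these families and of the jasmonate pathway were taken from 7 lists made by function: 88 genes in all, of which 25 had a probe set of their own in the annotation used here, the 7 genes included. Of the other 18, 0 passed in limma at an adjusted p of 0.05 over all genes in either direction, where 0% of 13356 genes did. At an unadjusted p under 0.05 there was 1 of 18, against 7.74% of all genes. The 18 had 5 values above and 13 below control, and their median was -0.09, where that of all genes was -0.04.

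The other defensins lay on the other side of control from PDF1.2. All 9 with a probe set had a mean difference below 0, from -0.37 to -0.06 with a median of -0.16, while the 3 defensin genes described above lay at 0.37 to 0.91. Those 3 were chosen with this contrast known, and PDF1.2 and PDF1.2b may read the same RNA. PDF1.4, at 0.91, was at -0.04 without empty-vector replicate 3. Of all 13356 genes, 8255 lay below control. With single arrays left out 7 to 9 of the 9 stayed below 0, without both replicate 3 arrays 8 did, and all 9 did with median centring or equal quantiles. LCR69, PDF2.1, LCR68 and LCR72 are close relatives with neighbouring locus tags, and their probe sets may share signal. PDF2.1 had values of -0.41, -0.25 and -0.46 in 35S-PaWRKY1 seedlings, against 0.20, -0.16 and -0.04 in empty-vector seedlings. Its genotypes did not overlap, and its difference was -0.37 (SE 0.118, unadjusted p 0.0159, adjusted p 0.53 in limma). LCR69, also named PDF2.2, had -0.15, -0.15 and -0.29 in 35S-PaWRKY1, against -0.03, 0.15 and -0.12 in the empty vector, with a difference of -0.20 (SE 0.0998, adjusted p 0.68). It was the other defensin of the 9 with its genotypes apart.

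LCR68 (PDF2.3) was at -0.24 (SE 0.131), LCR72 (PDF2.6) at -0.14 (SE 0.0877) and LCR66 (PDF2.4) at -0.09 (SE 0.101). PDF2.5 was at -0.16 (SE 0.219), with a 35S-PaWRKY1 range of 0.92 and an empty-vector range of 0.20, and it was at 0.07 without 35S-PaWRKY1 replicate 3. LCR80 was at -0.09 (SE 0.122) and LCR59 at -0.06 (SE 0.0834). LCR67, also named PDF1.1, was at -0.17 (SE 0.357). On the empty-vector arrays LCR67 had -0.03, 0.74 and -0.70, the order of JRG21 and PDF1.4 at a smaller size. Its difference was 0.02 without 35S-PaWRKY1 replicate 3 and 0.20 without empty-vector replicate 2. The adjusted p of these 7 genes in limma ran from 0.706 to 0.933.

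Of the other thionin list, 2 genes had a probe set of their own, and both lay above control without passing. AT2G15010 had 0.12, 0.19 and 0.10 in 35S-PaWRKY1 seedlings, against -0.07, 0.02 and 0.05 in empty-vector seedlings, so its genotypes did not overlap. Its difference was 0.14 (SE 0.0782, adjusted p 0.713 in limma). AT1G66100 was at 0.19 (SE 0.145, adjusted p 0.798), with 35S-PaWRKY1 replicate 3 within the control range. The difference of THI2.2 was 0.73, larger than both.

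**Figure D4:**
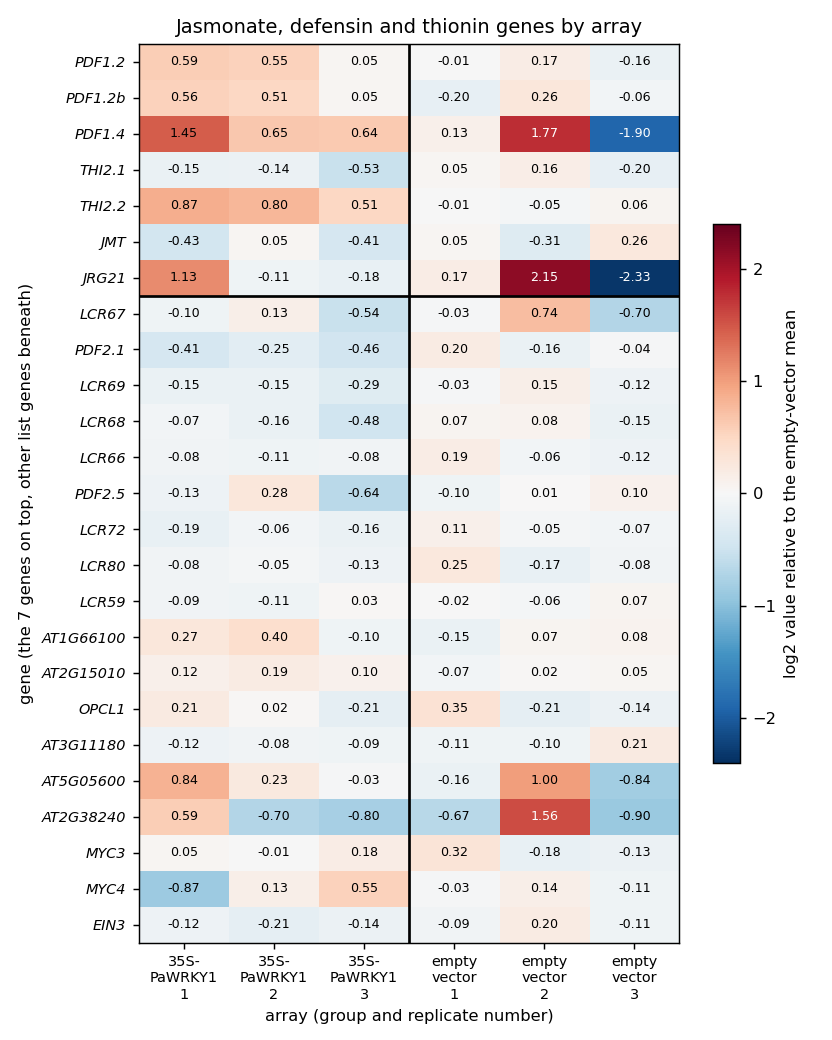
Values of the 7 genes (upper block) and of 18 other list genes (lower block) on each array, as log2 difference from the empty-vector mean, in colour and as numbers, with 35S-PaWRKY1 in the left 3 columns. Empty-vector replicate 2 is high and replicate 3 low for PDF1.4, JRG21, LCR67, AT5G05600 and AT2G38240.

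Of the list of enzymes that act on jasmonic acid or its conjugate, 3 further loci had a probe set, none with a symbol in the gene table. AT5G05600 had 0.84, 0.23 and -0.03 in 35S-PaWRKY1 seedlings, against -0.16, 1.00 and -0.84 in empty-vector seedlings. AT2G38240 had 0.59, -0.70 and -0.80, against -0.67, 1.56 and -0.90. In both, as in JRG21, 35S-PaWRKY1 replicate 1 was the highest of its genotype, empty-vector replicate 2 was the highest control array and replicate 3 the lowest. Their control ranges, 1.83 and 2.46, stood at positions 143 and 58 of 22746. The differences were 0.34 (SE 0.458, adjusted p 0.886) and -0.30 (SE 0.689, adjusted p 0.939) in limma. Both changed sign with 1 array left out, as JRG21 did. AT5G05600 was at -0.07 without empty-vector replicate 3 and at 0.84 without empty-vector replicate 2. AT2G38240 was at -0.75 without empty-vector replicate 3 and at 0.48 without empty-vector replicate 2, so these arrays give no direction for either gene. AT3G11180 had a difference of -0.10 (SE 0.107, adjusted p 0.855), with ranges of 0.05 over the 35S-PaWRKY1 arrays and 0.32 over the empty-vector arrays, and was at 0.01 without empty-vector replicate 3.

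For jasmonate synthesis, 1 of 15 genes had a probe set of its own: OPCL1, which activates a precursor for the shortening of its side chain. It was at 0.01 (SE 0.178, adjusted p 0.994 in limma). For perception and repression, 2 of 21 had one. MYC3, a transcription factor released when JAZ repressors are removed, was at 0.07 (SE 0.146, adjusted p 0.926). The related MYC4 was at -0.06 (SE 0.333, adjusted p 0.98), with -0.87, 0.13 and 0.55 in 35S-PaWRKY1 seedlings, against -0.03, 0.14 and -0.11 in empty-vector seedlings. MYC4 was thus spread over the 35S-PaWRKY1 arrays (range 1.42) and not over the controls (range 0.25), and without 35S-PaWRKY1 replicate 1 its difference was 0.34.

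Of the ERF branch, 3 of 14 genes had a probe set of their own, PDF1.2 and PDF1.2b among them. EIN3, the transcription factor at the end of ethylene signalling, had -0.12, -0.21 and -0.14 in 35S-PaWRKY1 seedlings, against -0.09, 0.20 and -0.11 in empty-vector seedlings. Its genotypes did not overlap, by a narrow margin, and its difference was -0.16 (SE 0.106, adjusted p 0.758 in limma). Of the 10 wound and herbivory genes of the MYC branch, 0 could be matched, so that branch was not analysed here. In all, the genotypes did not overlap for 4 of the 18 genes (PDF2.1, LCR69, AT2G15010 and EIN3), against 14.5% of all probe sets.

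**Figure D5:**
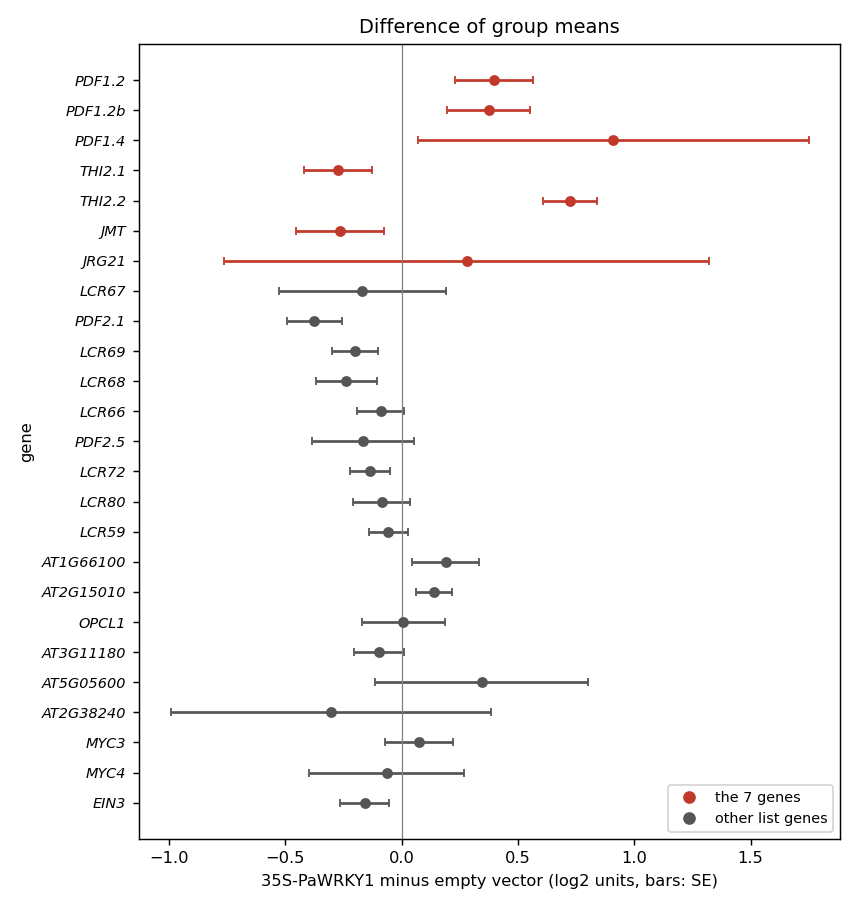
Difference of group means, 35S-PaWRKY1 minus empty vector, in log2 units with the moderated SE from limma as bars (n = 3 arrays per group), for the 7 genes in red and 18 other list genes in grey. THI2.2 lies at 0.73 with an SE of 0.116, JRG21 at 0.28 with an SE of 1.04, and all 9 other defensins (PDF2.1, PDF2.5 and those named LCR) lie below 0.

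The named genes with the most similar pattern were sought for each gene among 1573 probe sets whose gene has a symbol, not just a locus tag, by Pearson correlation over the 6 arrays. The 2 highest correlations per gene lay between 0.9622 and 0.9879. They are the highest of many on 6 arrays and describe likeness of shape, not of size. For THI2.2 they were CYP71B29, a cytochrome P450 gene (0.9751), and SAG29, for a sugar transporter known from senescing leaves (0.9622). CYP71B29 had 0.68, 0.52 and 0.48 in 35S-PaWRKY1 seedlings, against 0.03, -0.01 and -0.02 in empty-vector seedlings, apart like THI2.2.

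For PDF1.2 they were SEC22, for a vesicle transport protein (0.9755), and HCT, a lignin pathway enzyme gene (0.9741). HCT matched PDF1.2 in size as well, with 0.66, 0.67 and 0.17 in 35S-PaWRKY1 seedlings, against 0.07, 0.08 and -0.15 in empty-vector seedlings. For PDF1.2b they were mitochondrial cox2 (0.9759) and the peroxidase gene PRX52 (0.9745). For THI2.1 they were BGLU45, a beta-glucosidase gene (0.9879), and LPA19 (0.9763).

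For PDF1.4 they were ARLA1C (0.9824) and the expansin gene EXPA20 (0.9756), and for JRG21 LCB2, of sphingolipid synthesis (0.9859), and DELTA-OAT, for ornithine aminotransferase (0.9768). Their control ranges were far smaller than those of PDF1.4 and JRG21, at 0.30, 0.42, 0.49 and 0.77. JRG21 and PDF1.4 themselves correlated by 0.9556, and PDF1.2 and PDF1.2b by 0.9404. For JMT they were UBP27 (0.9866) and GSA1, of tetrapyrrole synthesis (0.9856).

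Markers of seedling tissues could be followed for 4 of 23 listed genes. Their differences were 0.02 (SE 0.0778) for RCA and 0.17 (SE 0.124) for FMA of the shoot, -0.04 (SE 0.135) for EXPA7 of root hairs and 0.08 (SE 0.165) for the seed storage gene PAP85. None passed in limma, with adjusted p from 0.781 to 0.968. These 4 genes are too few to check the labelled tissue or its make-up, and the part of a tissue shift in the values above was not tested.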

How the data were processed

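Per the labels' protocols, biotin-labelled cRNA from total RNA went onto Affymetrix arrays. The deposited log values, read here as log2, come from the series' value table. MAS5 and RMA appear in the submitters' processing notes, without version or role. No log base or scaling between arrays is stated (not given in the sources used here). Tested on the table, the control mean of each probe set was within 1.3e-06 of 0. No further normalization was applied.

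Of 22810 probe sets, 64 Affymetrix controls were left out. Genes came from GEO's platform annotation, updated through RefSeq's table of TAIR10.1: 13513 probe sets had 1 gene, 503 several and 8730 none given. Probe sets with several genes were not used, and listed genes were matched by locus. Differences, SE and two-sided p-values came from limma 3.58.1 (lmFit, eBayes; R 4.3.3). They were adjusted by Benjamini-Hochberg over the 22746 probe sets, or over 13356 genes for other list genes, at 0.05. Fits were checked on simulated data with independent noise on each array, so the check does not cover variation shared between arrays or probe sets. Python 3.11.15 and matplotlib 3.10.9 drew the figures.

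Named were the 7 genes, every list gene with a probe set of its own and, per gene, the 2 named probe sets with the highest correlation. The genes and lists were chosen with earlier results of these data known. A filter on dim probe sets needs levels and was not applied.

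Replicate numbers paired the samples, by the data and not by the labels: deviations from the group means of same-numbered arrays correlated by 0.314, 0.194 and 0.453 over probe sets, all above 0.1. Of the 6 unlike-numbered pairs, 35S-PaWRKY1 replicate 2 with empty-vector replicate 1 was above 0.1 too, at 0.171, close to the 0.194 of the number 2 pair, and the others lay between -0.406 and 0.0473. The reported fit had no block. Alternatives were median centring, equal quantiles, the block, array weights, single arrays left out, probe sets of several genes and, chosen after seeing the data, both replicate 3 arrays left out.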

Additional observations from a re-analysis of the deposited data

How the results depend on the processing

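Over 12 settings of the limma fit, 0 of the 7 genes and 0 of the 18 other list genes passed. At an unadjusted p under 0.05 in limma, the count among those 18 ran from 0 with equal quantiles to 3 with array weights. Over all 22746 probe sets the same 2 settings gave 1022 and 2704. All 77 recomputed differences of the 7 genes moved by less than 1 SD between replicates, a wide margin for JRG21 and PDF1.4. Leaving out a single array cannot move a difference by that much, and the replicate block cannot move it at all. Nothing on stability is therefore read from this count. THI2.2, PDF1.2, PDF1.2b, THI2.1 and JMT kept their direction in every setting. JRG21, at 0.28, was at -0.19 with equal quantiles, -0.76 with array weights, -0.65 without both replicate 3 arrays, and between -0.88 and 1.36 with single arrays left out. PDF1.4, at 0.91, was at 0.35 with equal quantiles, 0.06 with array weights, 0.10 without both replicate 3 arrays, and between -0.04 and 1.80 with single arrays left out. JMT was at -0.03 with array weights. The replicate block left every difference as it was and changed no call among these genes. Of the 18 other list genes, 10 changed sign with some single array left out (OPCL1, MYC3, MYC4, LCR66, LCR67, LCR80, PDF2.5, AT2G38240, AT3G11180 and AT5G05600). The median of the 7 genes, 0.37, was 0.29 with equal quantiles, 0.06 with array weights, and between -0.04 and 0.53 with single arrays left out.

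The count over all probe sets, 7, was 6 with the replicate block, 0 with equal quantiles (1022 at an unadjusted p under 0.05), 11 with array weights, 0 without both replicate 3 arrays (1914) and 0 to 1 with single arrays left out (1062 to 1936); the cause was not tested. Probe sets of several genes list 0 of the 7 genes, so that alternative gave no value. The number of arrays, 3 per group, limits what could be detected, and signal over background was not analysed here.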

Other observations

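The named probe sets with the widest control range held 2 opposed patterns. Of the 12 widest, a listing chosen after the values were seen, 8 were plastid-encoded (ndhH, rpoC1, rpoC2, petG, atpA, psaA, rpoB and rps15) and 4 nuclear. Probe sets without a gene symbol were not listed, so 8 of 12 is not the plastid share of all wide ranges. Of all 28 probe sets with a control range over 3, 19 had empty-vector replicate 3 lowest and 7 had it highest. All 8 plastid genes were highest on replicate 3 of both genotypes, at 0.58 to 2.78 in 35S-PaWRKY1 and 1.68 to 2.46 in the empty vector. The 4 nuclear genes, JRG21, PDF1.4, STZ (a zinc finger gene of stress responses) and PUB19 (a ubiquitin ligase gene), were lowest on empty-vector replicate 3. On 35S-PaWRKY1 replicate 3, JRG21 was at -0.18 and PDF1.4 at 0.64, against -2.33 and -1.90 on empty-vector replicate 3. Replicate 3 was also the lowest 35S-PaWRKY1 array for both genes. It lay close to 35S-PaWRKY1 replicate 2, which was at -0.11 for JRG21 and 0.65 for PDF1.4. The low of these 2 genes on the control array thus had no low of like size on the same-numbered 35S-PaWRKY1 array. STZ was set apart on another array, with 2.05 on empty-vector replicate 1. What set these arrays apart was not tested.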
